A study of Homo sapiens with 6 samples.

Results

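The genes described here are NFE2L2, which encodes the transcription factor NRF2, KEAP1, which encodes the protein that holds NRF2 in check, and 7 classical antioxidant targets of NRF2, namely NQO1, GCLC, GCLM, HMOX1, TXNRD1, SRXN1 and SLC7A11. They were taken from the count table by gene symbol and make up 9 of its 35554 genes. RNA sequencing was performed on parental LNCaP cells (n = 3) and on LNCaP-enzaR cells (n = 3). LNCaP is an established cell line grown from a human prostate cancer metastasis. LNCaP-enzaR is its derivative with resistance to enzalutamide, an inhibitor of androgen signalling. Per the study's methods, resistant cells were obtained by growing the parent in enzalutamide without a break, and less of it was used for maintenance. The labels name no other treatment, allele or construct in either line. Whether LNCaP-enzaR flasks held enzalutamide at harvest is not given, so a drug effect and a lasting difference of the line cannot be told apart. Each line stands for 1 culture history. Its replicates are flasks of that line, and the p-values below measure the spread between these flasks.

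Libraries held 77759122 to 98616465 counts. The 8 markers of prostate luminal epithelium were all measured, at a summed level of 3838 to 3924 CPM (counts scaled to 1000000 per library) in parental and 2509 to 2819 CPM in LNCaP-enzaR libraries. Of these, KLK3, KLK2, FOLH1 and HOXB13 were lower in LNCaP-enzaR, and TMPRSS2, EPCAM, KRT8 and KRT18 were higher. All of the lower ones were past the threshold given below. Of the higher ones only KRT8 was, and the others were short of its 1.5-fold limit. On average KLK3 went from 1190 to 141 CPM and KRT8 from 397 to 886 CPM. The 5 of 6 listed fibroblast markers that the table holds summed to at most 17.9 CPM, the 4 endothelial markers to at most 6.10 CPM, and no leukocyte marker exceeded 13 counts. Transcripts of the mitochondrial genome made up 6.72% to 7.06% of the counts in parental and 14.7% to 15.5% in LNCaP-enzaR libraries, and with those transcripts left out the number of NRF2 pathway genes past the threshold given below was the same, 7. LNCaP-enzaR replicate 1 stood apart from the other libraries of its line. The chi-square of its counts against theirs was 28.2 and 35.6 per degree of freedom, against 5.56 to 9.06 between the other libraries of a line. Values without this library are given where they change a result.

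NRF2 is made continuously in most cells and, in the absence of stress, is bound by KEAP1, an adaptor that presents it to the CUL3 ubiquitin ligase for degradation. Oxidants and electrophiles modify cysteines of KEAP1, NRF2 escapes degradation, enters the nucleus, pairs with a small MAF protein and binds antioxidant response elements near its targets. These targets supply glutathione, restore thioredoxin, break down haem and detoxify quinones. Because NRF2 is controlled mainly through the stability of its protein, the transcript level of NFE2L2 is not a measure of NRF2 activity, and no protein was measured in these libraries.

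The antioxidant response element is shown first because it is the DNA sequence through which the 7 targets are tied to NRF2. Its core was searched as TGACNNNGC on both strands, together with TGACTCAGC, 1 of the sequences contained in it, in windows around RefSeq transcription start sites (GRCh38.p14). Of the 9 genes, 7 had promoter entries, with 10 windows in all. The windows run from 250 bases before a start to 50 bases after it. The core lay in 4 of these 10 windows, belonging to GCLM, KEAP1 and TXNRD1, where 13.3% of all 35116 windows hold it. The exact TGACTCAGC lay in none of the 10. In the 5000 bases before a start it was found for NQO1 and GCLC, where 6.44% of all windows of that length hold it. The shorter core is uninformative at that length, since 82.3% of all such windows hold it. The upstream TXNRD1 window holds a further core match that reaches past the start, which is not printed. Each of these sites that precedes a start is printed below in the 5′ to 3′ direction of its motif strand, with the match in capitals and 10 bases on each side.

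NQO1: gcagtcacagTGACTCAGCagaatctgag
GCLC: cgcctccccgTGACTCAGCgctttgtgcg
GCLM: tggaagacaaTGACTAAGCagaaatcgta
TXNRD1, upstream start: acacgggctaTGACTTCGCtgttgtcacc
TXNRD1, downstream start: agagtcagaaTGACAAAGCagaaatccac
KEAP1, site nearer the start: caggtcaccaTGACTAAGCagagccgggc
KEAP1, site farther from the start: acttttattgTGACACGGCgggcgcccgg

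The NQO1 site is at chr16:69726997-69727025 on the minus strand, 455 bases before the start. It lies outside NQO1, in an exon of the divergent transcript NQO1-DT. The GCLC site is at chr6:53548239-53548267 on the plus strand, 3156 bases before the RefSeq start, within an intron of longer GCLC transcripts in GENCODE v44. The GCLM site, at chr1:93909446-93909474 on the plus strand, is 34 bases before the start and reaches the first base of an annotated GCLM exon. Of the TXNRD1 sites, that of the upstream start (chr12:104215670-104215698, plus strand, 99 bases before) lies outside the gene. That of the downstream start (chr12:104286920-104286948, minus strand, 102 bases before) lies in an exon of longer TXNRD1 transcripts. Both KEAP1 sites, at chr19:10502784-10502812 on the plus strand and chr19:10502807-10502835 on the minus strand, precede the inner of its RefSeq starts by 31 and 54 bases and lie in an exon of longer KEAP1 transcripts. A match of letters is a description of the sequence, and no binding was measured. The genes with a printed site moved in both directions between the lines, as the values below show.

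Transcripts of most NRF2 pathway genes differed between the lines, in both directions. NQO1, SLC7A11, NFE2L2, TXNRD1 and KEAP1 fell in LNCaP-enzaR, NQO1 to a small remainder of its parental level. HMOX1 and GCLC rose. GCLM and SRXN1 did not pass the threshold, which was an adjusted p of at most 0.05 together with a fold change of at least 1.5 (edgeR quasi-likelihood test, Benjamini-Hochberg adjusted over all 19711 genes tested). Thus 7 of the 9 genes were past the threshold, 2 higher and 5 lower, where 42.7% of all genes tested were past it, 23.3% higher and 19.5% lower. In 8 of the 9 the libraries of the lines did not overlap, where 70.6% of all genes did not. The median log2 fold change (LNCaP-enzaR over parental) was −0.63 over the 9 genes and 0.01 over all genes tested. In bulk samples, fewer cells that express a gene and less of its RNA per cell cannot be told apart.

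**Figure D1:**
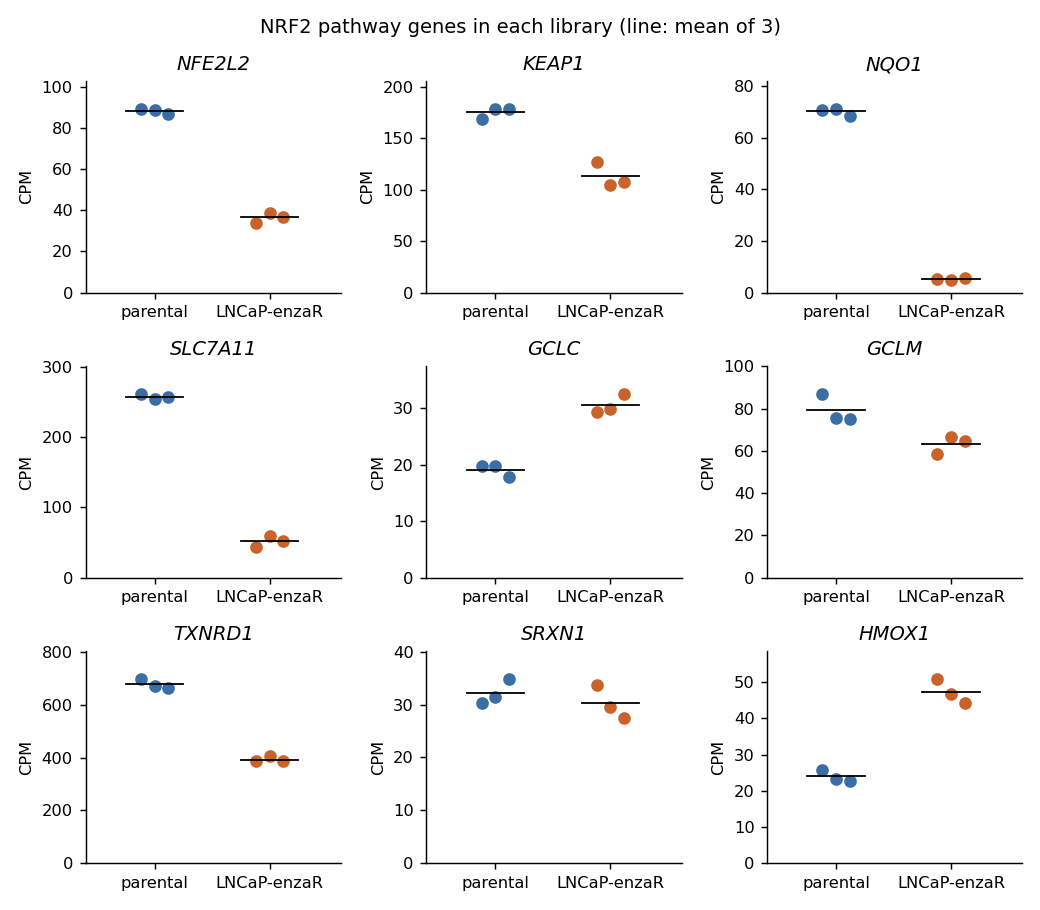
Level of each NRF2 pathway gene in CPM (vertical axis, from 0) in the 3 parental libraries (blue) and the 3 LNCaP-enzaR libraries (orange), with a line at the mean of each group. The groups overlap for SRXN1 alone. NQO1 goes from 70.3 to 5.19 CPM on average, whereas GCLC and HMOX1 are higher in each LNCaP-enzaR library than in any parental one.

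NFE2L2, the gene of NRF2 (ENSG00000116044.16, chromosome 2, 177227595 to 177392697, minus strand, GRCh38), was at 89.4, 88.6 and 87.0 CPM in the parental libraries and at 33.9, 38.9 and 36.9 CPM in the LNCaP-enzaR libraries. All 3 resistant libraries were thus far below all parental ones, with a spread within each line that was small beside the gap. The mean fell from 88.3 ± 1.21 to 36.6 ± 2.50 CPM (SD, n = 3 each), which is 2.41-fold lower (log2 fold change −1.27, SE 0.064, edgeR Benjamini-Hochberg adjusted p = 3.45e-10). Counted genes that overlap its deposited span were weak: AC074286.1, on the same strand, held 0 to 66 counts per library and AC079305.10, on the other strand, 14 to 68, where NFE2L2 held at least 2926.

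The genes that lie around NFE2L2 on chromosome 2 were also lower. Of the 28 tested genes with a mean of at least 5 CPM that start within 5 Mb of it, 20 (71.4%) were past the threshold and lower in LNCaP-enzaR, and 1 was past it and higher. Their median log2 fold change was −0.81. Over all 10769 tested genes of that level, 20.9% were past the threshold and lower, and the median was −0.08. Within this neighbourhood, 32.1% of the genes had a log2 fold change at or below that of NFE2L2 itself. The median was −0.75 over the 11 genes within 2 Mb and −0.996 over the 53 genes within 10 Mb, of which 40 were past the threshold and lower. Over chromosome 2 as a whole, 679 genes had a median of −0.28. For the other 8 NRF2 pathway genes the medians within 5 Mb ran from −0.37, around TXNRD1, to 0.04, around HMOX1. Around NQO1, 81 genes had a median of −0.05, and 0% of them were at or below its own value. These windows were chosen after the values of NFE2L2 were known and are given as a description. The part of the chromosomal neighbourhood in the level of NFE2L2 was not tested, and no DNA was sequenced here.

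KEAP1, the adaptor that marks NRF2 for degradation (ENSG00000079999.14, chromosome 19, 10486125 to 10503558, minus strand), was at 169, 179 and 179 CPM in parental and at 127, 105 and 107 CPM in LNCaP-enzaR libraries. The groups did not overlap, and LNCaP-enzaR replicate 1 was the highest of its line. The mean fell from 176 ± 5.68 to 113 ± 12.5 CPM (SD, n = 3 each), 1.55-fold lower (log2 fold change −0.63, SE 0.072, edgeR adjusted p = 2.18e-06). This is close to the fold limit. Without LNCaP-enzaR replicate 2 the log2 fold change was −0.58 and with upper-quartile scaling −0.53, both short of the limit.

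Set against each other, NFE2L2 fell by more than KEAP1. Per kilobase of transcript, the level of NFE2L2 was 0.554, 0.519 and 0.510 of that of KEAP1 in parental libraries and 0.279, 0.390 and 0.361 of it in LNCaP-enzaR libraries. The ratio was lower in every resistant library, and lowest in replicate 1. On the log2 scale it changed by −0.64 (two-sided exact permutation test, p = 0.10, which is the smallest that 3 libraries against 3 allow). The p adjusted over the 4 ratios compared was also 0.10.

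NQO1, a quinone reductase that uses NADPH or NADH and is among the most widely used readouts of NRF2 (ENSG00000181019.13, chromosome 16, 69706996 to 69726668, minus strand), was at 70.9, 71.3 and 68.6 CPM in parental libraries. In LNCaP-enzaR libraries it was at 5.11, 4.90 and 5.56 CPM. The libraries of each line lay close together and the lines were far apart. Counts were 5391 to 6565 per parental and 433 to 552 per resistant library, so the low level was still well measured. The mean fell from 70.3 ± 1.45 to 5.19 ± 0.338 CPM (SD, n = 3 each), 13.5-fold lower (log2 fold change −3.76, SE 0.074, edgeR adjusted p = 3.32e-14). By log2 fold change, NQO1 was at rank 276 of the 19711 tested genes counted from the lowest. In GENCODE v44, 19.4% of its exonic bases lie in exons of an antisense gene that was not counted here, and the strand setting of the counting is not stated.

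**Figure D2:**
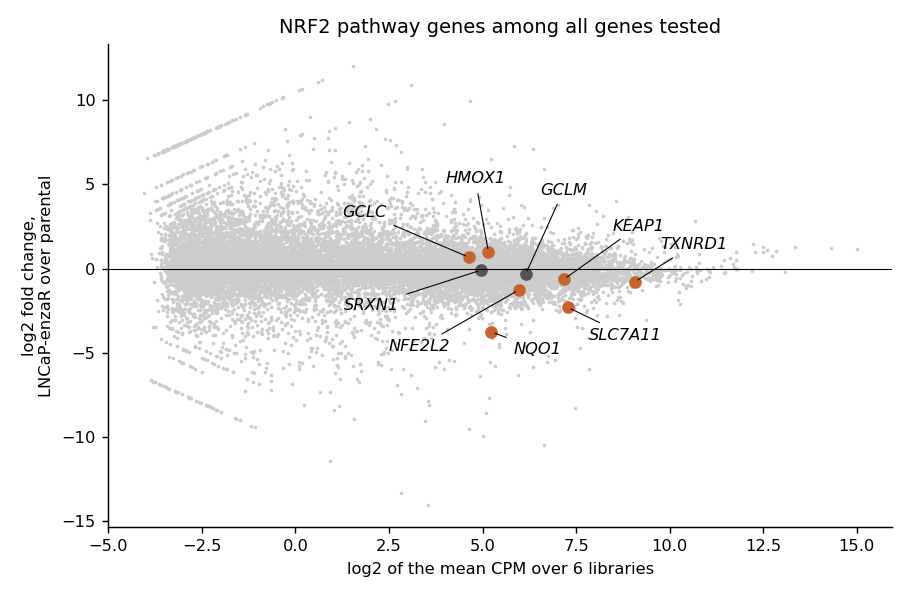
Log2 fold change (LNCaP-enzaR over parental, vertical axis) against the log2 of the mean CPM over the 6 libraries (horizontal axis) for all 19711 tested genes (light grey), with the NRF2 pathway genes in orange where past the threshold and in dark grey otherwise. NQO1 (−3.76) and SLC7A11 (−2.30) lie at the lower edge of the cloud at their level, and the other 7 lie within it. The diagonal streaks hold genes with almost no counts in 1 of the lines, whose fitted fold changes depend on a small added count.

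SLC7A11, GCLC and GCLM serve the synthesis of glutathione, the main small antioxidant of the cell. SLC7A11 is the cystine carrier of system xc-, which brings in the precursor of cysteine. It (ENSG00000151012.13, chromosome 4, 138164097 to 138242349, minus strand) was at 261, 254 and 257 CPM in parental libraries and at 44.2, 60.0 and 52.8 CPM in LNCaP-enzaR libraries. The resistant libraries were all far below the parental ones, and replicate 1 was the lowest. The mean fell from 257 ± 3.84 to 52.3 ± 7.95 CPM (SD, n = 3 each), 4.92-fold lower (log2 fold change −2.30, SE 0.089, edgeR adjusted p = 2.26e-11). Its antisense gene SLC7A11-AS1 held 8 to 86 counts per library, where SLC7A11 held at least 3811. SLC3A2, the heavy chain that carries SLC7A11 to the membrane, went from 208 ± 4.12 to 171 ± 13.8 CPM, or −0.29 on the log2 scale (edgeR adjusted p = 0.000907), short of the fold limit.

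The catalytic and the modifier subunit of glutamate-cysteine ligase, which makes the first step of glutathione synthesis, went opposite ways. GCLC, the catalytic subunit (ENSG00000001084.13, chromosome 6, 53497341 to 53616970, minus strand), was at 19.8, 19.8 and 17.7 CPM in parental and at 29.2, 29.8 and 32.5 CPM in LNCaP-enzaR libraries. Every resistant library was above every parental one. The mean rose from 19.1 ± 1.21 to 30.5 ± 1.75 CPM (SD, n = 3 each), 1.60-fold higher (log2 fold change 0.67, SE 0.074, edgeR adjusted p = 1.69e-06). GCLM, the modifier subunit (ENSG00000023909.10, chromosome 1, 93885199 to 93909456, minus strand), was at 87.0, 75.7 and 74.8 CPM in parental and at 58.5, 66.3 and 64.7 CPM in LNCaP-enzaR libraries. Again the groups did not overlap, now with the resistant libraries below. The mean moved from 79.2 ± 6.79 to 63.2 ± 4.13 CPM, which is −0.33 on the log2 scale (95% interval −0.48 to −0.17, adjusted p = 0.00112), which exceeded the replicate spread and was short of the 1.5-fold limit.

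The balance of these partners differed between the lines. Per kilobase, GCLC was at 0.294, 0.338 and 0.305 of the level of GCLM in parental libraries and at 0.645, 0.580 and 0.648 of it in LNCaP-enzaR, a change of the log2 ratio of 1.00. SLC7A11 was at 0.251, 0.235 and 0.238 of the level of SLC3A2 in parental libraries and at 0.0462, 0.0709 and 0.0642 of it in LNCaP-enzaR, a change of −2.02. For both ratios the libraries of the lines did not overlap. Both changes reached the smallest possible p (two-sided exact permutation test, p = 0.10, adjusted over the 4 ratios p = 0.10).

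**Figure D3:**
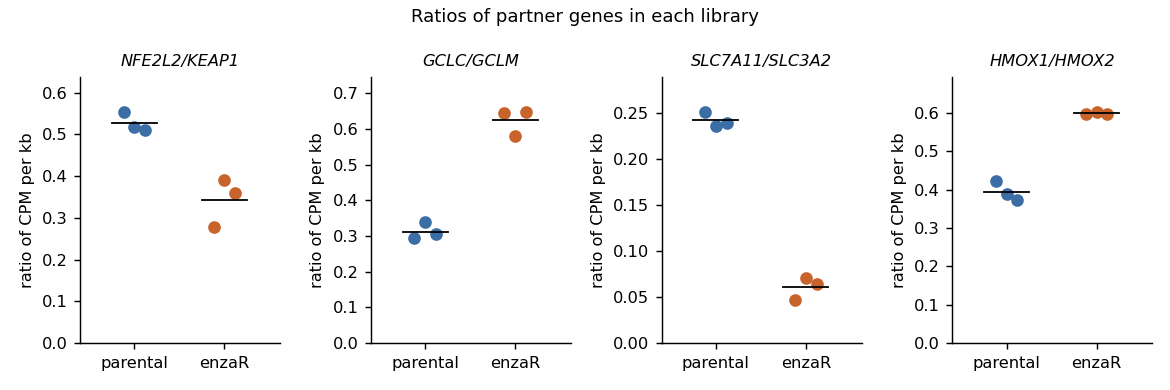
Ratio of the levels of partner genes, in CPM per kilobase of transcript (vertical axes, from 0), in each parental (blue) and LNCaP-enzaR (orange, marked enzaR) library, with a line at the mean. NFE2L2/KEAP1 and SLC7A11/SLC3A2 are lower and GCLC/GCLM and HMOX1/HMOX2 higher in each LNCaP-enzaR library than in any parental one.

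TXNRD1 and SRXN1 act in the thioredoxin and peroxiredoxin branch. TXNRD1, the cytosolic reductase that restores thioredoxin with NADPH (ENSG00000198431.16, chromosome 12, 104215779 to 104350307, plus strand), was at 699, 672 and 663 CPM in parental and at 387, 405 and 387 CPM in LNCaP-enzaR libraries. The groups were well apart. The mean fell from 678 ± 18.9 to 393 ± 10.4 CPM (SD, n = 3 each), 1.73-fold lower (log2 fold change −0.79, SE 0.051, edgeR adjusted p = 5.33e-09). SRXN1, sulfiredoxin, which repairs over-oxidized peroxiredoxins (ENSG00000271303.2, chromosome 20, 646615 to 653200, minus strand), was at 30.4, 31.4 and 34.9 CPM in parental and at 33.7, 29.6 and 27.4 CPM in LNCaP-enzaR libraries. Here the groups overlapped, with the highest resistant library, replicate 1, above 2 of the parental ones. Means were 32.2 ± 2.36 and 30.2 ± 3.23 CPM, a log2 fold change of −0.09 (95% interval −0.27 to 0.09, edgeR adjusted p = 0.359), which turned to 0.01 with upper-quartile scaling. The interval leaves out a 1.5-fold change in either direction. Of the exonic bases of SRXN1, 90.7% lie in exons of an uncharacterised gene on the same strand, which held 73 to 136 counts per library, so that how reads were shared between them bears on its level.

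HMOX1, haem oxygenase 1, is the inducible enzyme that opens haem and frees its iron (ENSG00000100292.18, chromosome 22, 35380361 to 35394214, plus strand). It was at 25.8, 23.3 and 22.8 CPM in parental and at 51.0, 46.9 and 44.2 CPM in LNCaP-enzaR libraries. All 3 resistant libraries were above all parental ones. The mean rose from 23.97 ± 1.60 to 47.3 ± 3.40 CPM (SD, n = 3 each), 1.97-fold higher (log2 fold change 0.98, SE 0.074, edgeR adjusted p = 3.12e-08). Its constitutive relative HMOX2 went from 65.4 ± 0.812 to 85.0 ± 6.29 CPM, or 0.38 on the log2 scale (edgeR adjusted p = 9.97e-05), which did not reach the fold limit. Per kilobase, HMOX1 was at 0.422, 0.389 and 0.372 of the level of HMOX2 in parental and at 0.597, 0.603 and 0.598 of it in LNCaP-enzaR libraries (log2 change 0.61, two-sided exact permutation test, p = 0.10, adjusted p = 0.10 over the 4 ratios).

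**Figure D4:**
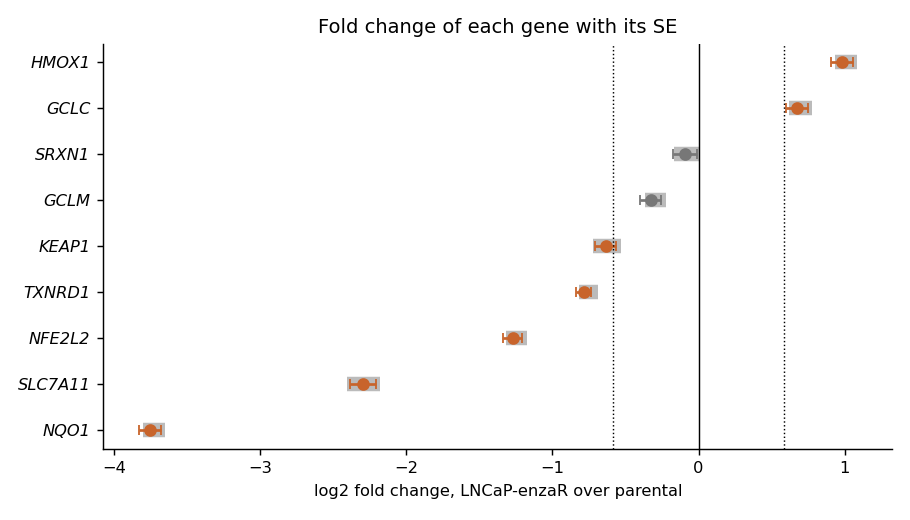
Log2 fold change (LNCaP-enzaR over parental, horizontal axis) of each NRF2 pathway gene as fitted by edgeR (points, orange where past the threshold, with error bars of 1 SE). Grey bands give the range over the alternative analyses, and dotted lines mark a 1.5-fold change. The band of KEAP1 crosses the dotted line, that of SRXN1 reaches 0.01, and those of the other 7 stay on 1 side.

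Levels were compared between genes only per length, as CPM per kilobase of the canonical transcript. TXNRD1 was the most abundant of the 9 in both lines, at 176 ± 4.90 in parental and 102 ± 2.71 CPM per kilobase in LNCaP-enzaR, and KEAP1 was next, at 68.5 ± 2.21 and 44.1 ± 4.86. In parental cells there followed NFE2L2 (36.1 ± 0.495), NQO1 (27.9 ± 0.575), SLC7A11 (26.7 ± 0.398), GCLM (16.2 ± 1.39), HMOX1 (15.4 ± 1.03), SRXN1 (12.7 ± 0.935) and GCLC (5.05 ± 0.321). Only GCLM and HMOX1 overlapped between neighbours in that order. In LNCaP-enzaR, HMOX1 (30.5 ± 2.19) stood after KEAP1, followed by NFE2L2 (14.95 ± 1.02), GCLM (12.9 ± 0.845), SRXN1 (11.96 ± 1.28), GCLC (8.06 ± 0.463), SLC7A11 (5.43 ± 0.824) and NQO1 (2.06 ± 0.134). There GCLM and SRXN1 overlapped. HMOX1 thus moved from rank 7 to rank 3, while NQO1 moved from rank 4 to rank 9. The order depends on the length used. By the combined length of all annotated exons NFE2L2 would be at rank 8 in both lines. SLC7A11 would then be at rank 3 in parental cells and rank 6 in LNCaP-enzaR, and SRXN1 at rank 6 and rank 4. The ranks of HMOX1 and NQO1 would stay as given. These lengths come from GENCODE v44, where the span of NFE2L2 differs from the deposited one. There 23.4% of its exonic bases lie in exons of HNRNPA3, whose deposited span does not overlap that of NFE2L2. Its rank by all exons may therefore rest on bases over which no reads were counted. Per-kilobase ratios of partner genes depend on the length in the same way, whereas their changes between the lines do not.

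By the distance between centred log2 CPM profiles over the 6 libraries, the genes most like NFE2L2 among 10768 candidates were HSPE1, a mitochondrial co-chaperone, VTA1, a factor of endosomal sorting, and EFNA5, an ephrin. Their root mean square distances were 0.021, 0.021 and 0.025 on the log2 scale. Their log2 fold changes were −1.28, −1.29 and −1.30. With 2 lines, the profile is set mainly by the difference between them, and the likeness describes its size.

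The other genes of the pathway were read from 9 lists that together hold 116 genes. Of these, 109 were tested and 50 were past the threshold (45.9%, against 42.7% of all genes tested), 21 higher and 29 lower, with a median log2 fold change of −0.07. NFE2, DPEP1, ABCC3, ALDH3A1, CYBA and CYBB had too few counts for a test, and NOX4 was not analysed here. The pooled share past the threshold is therefore near the background. Shares of single lists ran from 27.3% to 70.6%, and the lists are given as descriptions of their members.

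**Figure D5:**
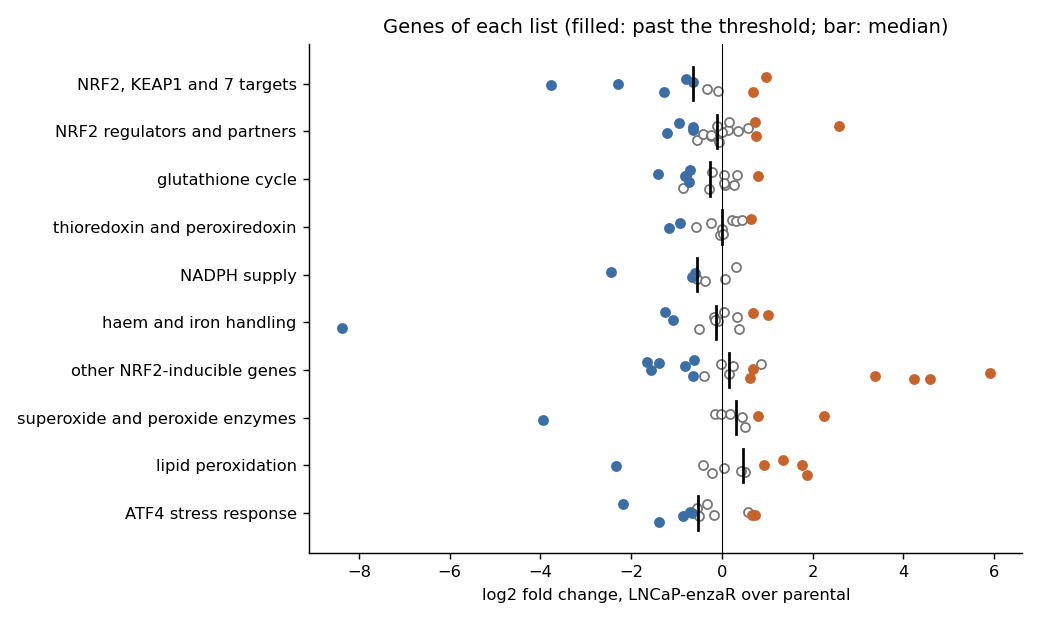
Log2 fold change (LNCaP-enzaR over parental, horizontal axis) of each tested gene of the NRF2 pathway genes and of the 9 lists (rows). Filled points are past the threshold, blue where lower and orange where higher, open points are not, and each black bar is the median of its row. Most rows spread to both sides of 0. The point at the far left is SLC40A1, which had 0 counts in LNCaP-enzaR and whose fitted value is no estimate of size.

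Among 19 tested regulators and partners of NRF2, 7 were past the threshold, 3 higher and 4 lower (36.8%, median −0.11). MAFF, a small MAF protein that can pair with NRF2, rose from 1.14 ± 0.176 to 6.74 ± 0.889 CPM (log2 fold change 2.57, with SD and n = 3 here and below). GSK3B, a kinase that marks NRF2 for a second, KEAP1-independent route of degradation, rose from 115 ± 3.18 to 190 ± 9.43 CPM (0.73). PALB2, a DNA repair protein that also binds KEAP1, fell from 19.3 ± 0.307 to 10.04 ± 0.133 CPM (−0.94). These were the 3 genes of the list with the smallest p, and each had an adjusted p of at most 3.83e-08 (edgeR, Benjamini-Hochberg). The other 4 past the threshold, named after their values were seen, were MAFK (0.76), BACH1 (−1.21), NFE2L3 (−0.63) and PGAM5 (−0.63). BACH1 is a repressor that competes with NRF2 at response elements, that of HMOX1 included. It fell from 28.0 ± 0.589 to 12.1 ± 1.99 CPM. CUL3 and RBX1, which form the ubiquitin ligase that KEAP1 serves, had log2 fold changes of −0.56 and −0.42, short of the fold limit, and SQSTM1, which can sequester KEAP1, had 0.36.

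Of 14 tested genes of the glutathione cycle beside GCLC, GCLM and SLC7A11, 6 were past the threshold, 1 higher and 5 lower (42.9%, median −0.25). GSR, the reductase that restores oxidized glutathione with NADPH, fell from 318 ± 7.98 to 192 ± 8.20 CPM (log2 fold change −0.73, edgeR adjusted p = 2.15e-08). GGCT, which breaks down gamma-glutamyl peptides, fell from 90.7 ± 4.73 to 51.6 ± 3.28 CPM (−0.81), with 27.7% of its exonic bases shared with another gene. OPLAH, which returns oxoproline to glutamate, rose from 19.4 ± 0.507 to 33.9 ± 3.49 CPM (0.80). GLRX2 (−0.79), CHAC1 (−0.70) and GPX2 (−1.41, with a mean of at most 0.515 CPM in either line) were the others lower, named after their values were seen. GSS, which makes the second step of glutathione synthesis, had a log2 fold change of 0.05 (95% interval −0.07 to 0.17), and GPX1 of 0.05 (−0.12 to 0.21).

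Of 11 genes of the thioredoxin and peroxiredoxin system, 3 were past the threshold, 1 higher and 2 lower (27.3%, median 0.01). TXNRD2, the mitochondrial thioredoxin reductase, fell from 95.0 ± 2.28 to 42.4 ± 4.23 CPM (log2 fold change −1.17), a larger fitted change than that of cytosolic TXNRD1, though the difference between them was not tested. PRDX6, a peroxiredoxin that reduces lipid peroxides, fell from 444 ± 2.17 to 233 ± 4.30 CPM (−0.93). TXNIP, an inhibitor of thioredoxin, rose from 118 ± 1.89 to 183 ± 7.76 CPM (0.64). The adjusted p of each was at most 1.01e-07 (edgeR). Thioredoxin itself, TXN, had −0.24 (95% interval −0.36 to −0.13), and the substrates of SRXN1 among the peroxiredoxins had −0.03 (PRDX1), 0.45 (PRDX2), 0.01 (PRDX3) and −0.57 (PRDX4), none past the fold limit.

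NADPH feeds NQO1, TXNRD1 and GSR. Of 7 genes that supply it, 3 were past the threshold and lower and none was past it and higher (42.9%, median −0.56). ME1, the cytosolic malic enzyme, fell from 67.2 ± 1.71 to 12.3 ± 1.01 CPM (log2 fold change −2.45, edgeR adjusted p = 1.84e-12). TALDO1, transaldolase of the pentose phosphate pathway, fell from 249 ± 5.03 to 159 ± 7.63 CPM (−0.65, and −0.55 with upper-quartile scaling, short of the limit). PGD, which makes NADPH in that pathway, went from 263 ± 8.46 to 179 ± 3.56 CPM (−0.56, short of the limit). TKT, the other gene past the threshold, was named after its values were seen (−0.59). With upper-quartile scaling only 1 of the 7 was past the threshold.

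Of 12 genes of haem and iron handling beside HMOX1, 5 were past the threshold, 2 higher and 3 lower (41.7%, median −0.13). TFRC, the transferrin receptor through which iron enters, fell from 502 ± 12.2 to 238 ± 16.9 CPM (log2 fold change −1.07, edgeR adjusted p = 9.54e-10). SLC48A1, a carrier that brings haem into the cytosol, rose from 22.6 ± 1.70 to 45.7 ± 3.55 CPM (1.02). FECH, which puts iron into haem, went from 317 ± 2.77 to 222 ± 10.5 CPM (−0.52, short of the limit). The remaining 3 past the threshold were named after their values were seen. FTL, the light chain of the iron store ferritin, rose (0.68), whereas the heavy chain FTH1 had −0.10 (95% interval −0.26 to 0.07). Of the exonic bases of FTH1, 63.2% are shared with other genes. ABCB6, a porphyrin carrier, was lower (−1.26), with a mean of at most 2.10 CPM in either line and 54.6% of its exonic bases shared with other genes. SLC40A1, ferroportin, through which iron leaves the cell, had 28 to 49 counts per parental library and 0 in each LNCaP-enzaR library, which is at least 14.1-fold lower when the latter are set to 3 counts per library. A count of 0 with this limit covers counting error only.

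Of 17 tested genes in a list of further NRF2-inducible genes, 12 were past the threshold (70.6%, median 0.16), 6 in each direction. Among all genes tested, 42.7% were past it, 23.3% higher and 19.5% lower. The list was chosen with earlier results known, and its share was not tested. AKR1C1, an aldo-keto reductase that acts on steroids and aldehydes, rose from 0.263 ± 0.139 to 15.5 ± 1.46 CPM (log2 fold change 5.91), and AKR1C2 rose from 0.264 ± 0.131 to 5.11 ± 0.620 CPM (4.24). UGDH, which makes UDP-glucuronic acid for conjugation, fell from 154 ± 8.25 to 52.0 ± 3.54 CPM (−1.57, with 12.7% of its exonic bases shared with another gene). Each had an edgeR adjusted p of at most 1.59e-09. The others higher were AKR1C3 (3.36), AKR1B10 (4.58), EPHX1 (0.62) and ABHD4 (0.69). The others lower were CBR3 (−1.66), OSGIN1 (−1.39), TRIM16L (−0.82), PIR (−0.63) and TRIM16 (−0.62). These 9 were named after their values were seen. The AKR1C genes are closely related copies among which reads may have been divided, so their separate values are uncertain. Of the exonic bases of TRIM16L 100% are shared with other genes, of those of CBR3 71.1% and of those of TRIM16 28.7%.

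Of 8 tested enzymes that make or remove superoxide and peroxide, 3 were past the threshold, 2 higher and 1 lower (37.5%, median 0.31). CAT, catalase, rose from 106 ± 2.15 to 185 ± 2.68 CPM (log2 fold change 0.79, edgeR adjusted p = 5.43e-09). SOD3, the secreted superoxide dismutase, fell from 4.01 ± 0.260 to 0.260 ± 0.0700 CPM (−3.94, adjusted p = 4.50e-10). SOD1, the cytosolic one, went from 173 ± 5.27 to 248 ± 25.2 CPM (0.52, short of the limit, and 0.62 with upper-quartile scaling, past it). DUOX2, an oxidase that makes hydrogen peroxide, was named after its values were seen and was higher (2.26), with a mean of at most 0.581 CPM in either line.

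Of 10 genes that set the sensitivity of membranes to lipid peroxidation, 5 were past the threshold, 4 higher and 1 lower (median 0.46). Among all genes tested, 42.7% were past it, 23.3% higher and 19.5% lower, so the share of this short list is near the background. ACSL3, which activates mainly saturated and monounsaturated fatty acids, fell from 413 ± 16.6 to 81.6 ± 6.46 CPM (log2 fold change −2.34, edgeR adjusted p = 1.05e-12). ACSL4, which activates polyunsaturated ones, rose from 6.18 ± 0.410 to 20.9 ± 2.90 CPM (1.76). LPCAT3, which places the latter in phospholipids, rose from 27.2 ± 1.16 to 69.4 ± 1.91 CPM (1.35), and 66.0% of its exonic bases are shared with other genes. The lipoxygenases ALOX5 (1.86) and ALOX12 (0.93), named after their values were seen, were the others higher, both with means under 2 CPM.

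ATF4 is a second activator of SLC7A11 in amino acid shortage. Of 12 genes of its stress response, 7 were past the threshold, 2 higher and 5 lower (58.3%, median −0.52). Among all genes tested, 42.7% were past it, and the share of this short list was not tested. SLC7A5, a carrier of large neutral amino acids, fell from 20.6 ± 0.428 to 4.54 ± 0.491 CPM (log2 fold change −2.18). PHGDH, the first enzyme of serine synthesis, fell from 711 ± 22.5 to 273 ± 25.05 CPM (−1.38), and TRIB3, a pseudokinase that restrains ATF4, fell from 106 ± 5.70 to 59.1 ± 5.59 CPM (−0.85). The adjusted p of each was at most 1.03e-07 (edgeR). PSAT1 (−0.67) and CHAC1 (−0.70) were the others lower, while ATF3 (0.72) and DDIT3 (0.66) were higher, all named after their values were seen. DDIT3 shares 39.6% of its exonic bases with other genes. ATF4 itself went from 525 ± 21.8 to 360 ± 22.2 CPM (−0.55, short of the fold limit).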

How the data were processed

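Parental LNCaP and LNCaP-enzaR libraries (n = 3 flasks each) were grouped by sample title. The authors trimmed reads with Cutadapt, aligned them to GRCh38 with STAR and obtained gene totals with featureCounts. The authors deposited these counts without normalization. The strand setting and the treatment of multi-mapped reads are not given in the sources used here, so overlapping, antisense and near-identical genes are uncertain.

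Counts were tested with edgeR 4.0.16 in R 4.3.3 (filterByExpr, TMM, robust quasi-likelihood F-test, Benjamini-Hochberg adjustment over 19711 genes, no covariates). The threshold was a fold of at least 1.5 at an adjusted p of 0.05 or less. The study's DESeq2 (here 1.42.0) was an alternative, as were other scalings, filters, gene sets, thresholds, a replicate block and leaving out each library. CPM are TMM-scaled. Totals of 77759122 to 98616465 counts put 3 counts at 0.0302 to 0.0382 CPM, which covers counting error only. On simulated counts for 19231 genes, of which 200 were changed, the test recovered 99% of 2-fold and 100% of 4-fold changes. It called 4 of the unchanged genes. In the data 8425 genes were past the threshold, many more than were changed in the simulation. No fold near 1.5 was simulated, so calls near the fold limit are not covered.

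The genes and the lists were chosen with earlier results of these data known. The text names the 9 genes, the 3 genes of each list with the smallest p, both genes of each ratio and the 3 genes closest to NFE2L2. Others fall outside this rule, and many of them are marked as named after their values were seen. Unmarked ones, such as CUL3, GSS, TXN, FTH1 and ATF4, were also named with their values known. Coordinates are those of the deposited table (GRCh38). Of its genes, 99.8% were found in GENCODE v44, which gave strand, transcript length and exon overlap. The overlap is not printed for every gene named.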

Additional observations from a re-analysis of the deposited data

How the results depend on the processing

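Of the 9 genes, NFE2L2 (−1.32 to −1.17), NQO1 (−3.81 to −3.66), SLC7A11 (−2.40 to −2.18), TXNRD1 (−0.82 to −0.69), GCLC (0.62 to 0.77), HMOX1 (0.93 to 1.08) and GCLM (−0.37 to −0.22) stayed on their side of the threshold, without a change of sign, in each of the 15 alternative fits. KEAP1 missed the fold limit under upper-quartile scaling (−0.53) and without LNCaP-enzaR replicate 2 (−0.58), and leaving out single libraries gave −0.72 to −0.58. SRXN1 changed sign under upper-quartile scaling (0.0096). This scaling shifts every gene, by 0.10 (log2) at the median, which is the size of both moves, and 60.9% instead of 54.5% of the calls were then higher. With it 1 of the NADPH supply genes was past the threshold.

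Requiring no minimum fold put 13074 of the 19711 genes tested (66.3%) past the threshold, and 8 of the 9 genes described. Of the lists it put past it 14 of 19 regulators and partners and 8 of 11 thioredoxin and peroxiredoxin genes. The same held for 6 of 7 NADPH supply genes, 10 of 12 haem and iron genes and 5 of 8 superoxide and peroxide enzymes. So it did for 9 of 10 lipid peroxidation genes and 12 of 12 ATF4 genes. Requiring a fold of at least 2 left 5561 of the 19711 genes tested. It left 3 of the 9 genes described (NQO1, SLC7A11 and NFE2L2) and 2 of 19 regulators and partners. Left were also 1 of 14 glutathione cycle genes, 1 of 11 thioredoxin and peroxiredoxin genes and 1 of 7 NADPH supply genes. Of the further inducible genes 7 of 17 remained, and of the ATF4 genes 2 of 12. Among the list genes named, PGD passed the limit with library totals (−0.59), TALDO1 lost it (−0.55) and SOD1 passed it (0.62) with upper-quartile scaling.

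Libraries with the same replicate number did not deviate together from their line means (correlations of −0.065 to −0.00041), so the number pairs nothing. A fit with a replicate block put 8212 genes and 7 of the 9 described past the threshold, and 8174 of the former were shared with the fit without it. Around NFE2L2, 19 to 21 of the genes within 5 Mb were past the threshold and lower in the fits that tested all 28, and 18 of 26 with protein-coding genes only. Their median was −0.71 with upper-quartile scaling. These windows and the alternatives for list genes were added after the data were seen. Depth limits statements on genes below about 1 CPM, and 3 libraries a line limit the ratios, whose permutation p cannot be under 0.10.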
